A study of Mus musculus with 48 samples.

Results

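Myelin owes much of its composition to a small set of lipid enzymes, and 9 of their genes were followed here in oligodendrocyte lineage cells and microglia of the neonatal mouse brain: Fa2h, Ugt8a, Gal3st1, Aspa, Elovl1, Elovl5, Elovl7, Scd1 and Scd2. They were taken by name, as every non-control probe that the array annotates with one of these symbols, which gave 10 probes for 9 of the 34797 gene names on the array; Elovl1 had 2 probes and each other gene 1. Expression was read on 48 Agilent 1-colour mouse arrays, 6 for each of 8 groups. The groups were O4+ cells and CD11B+ cells, each at postnatal day 5 (P5) and day 10 (P10), from pups given either phosphate-buffered saline (PBS) or interleukin-1 beta (IL1B).

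All animals were male pups, labelled as Swiss mice, and neither labels nor methods name a transgene or deletion. IL1B was given into the peritoneum at 10 ng/g, over P1 to P4 and once more at P5, and PBS pups received the vehicle on the same schedule. P5 samples were collected 2 h after the last injection according to the labels, and P10 samples 5 days later. The sources differ on this: the study's methods name OF1 pups and a later hour at P5, and the free-text description of the P10 samples gives day 5 and injections up to P10, whereas their titles and stage give P10, which was used here. Per the study's methods, brains without cerebellum and olfactory bulbs were pooled for each sample, so a sample is several pups, and the 2 populations were taken one after the other with magnetic beads from the same tissue. Sorted populations were bulk samples, in which fewer cells of a type and less RNA per cell cannot be told apart.

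Galactosylceramide and its sulfated form, sulfatide, are the signature glycolipids of myelin. Fa2h hydroxylates fatty acids, and ceramide synthesis supplies a ceramide that can carry them. Ugt8a adds galactose to give galactosylceramide, and Gal3st1 adds sulfate to give sulfatide. The fatty acids themselves come from elongases, of which Elovl1 and Elovl7 act mainly on saturated chains and Elovl5 on polyunsaturated ones, and from the stearoyl-CoA desaturases Scd1 and Scd2, which make oleate. Aspa, aspartoacylase, splits N-acetylaspartate and so releases acetate that oligodendrocytes can use for lipid synthesis. The O4 antibody binds sulfatide and a related precursor lipid, so the sort itself rests on a product of Ugt8a and Gal3st1, and the excess of these transcripts in O4+ over CD11B+ cells is not independent of how the cells were chosen.

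The promoters of 6 of the 9 genes were matched by symbol in the RefSeq set on GRCm38.p6, with 9 start sites in all (all but Fa2h, Scd1 and Scd2). Sequences are shown for Aspa, which moved most of the 9 with age and under IL1B at P10 in O4+ cells, for Ugt8a and the first start of Gal3st1, which act one after the other, and for Elovl5, which passed no test of age or of IL1B. Each is the 250 bases before the start, 5′ to 3′ on the gene's strand, and capitals mark 3 elements searched on either strand. These are the GC box, with the letters GGGCGG, the CCAAT box, whose letters are its name, and the TATA box, searched as the run TATAAA. The windows are chr11:73324638-73324887 (minus strand) for Aspa, chr3:125938653-125938902 (minus) for Ugt8a, chr11:3983386-3983635 (plus) for Gal3st1 and chr9:77917115-77917364 (plus) for Elovl5.
Aspa: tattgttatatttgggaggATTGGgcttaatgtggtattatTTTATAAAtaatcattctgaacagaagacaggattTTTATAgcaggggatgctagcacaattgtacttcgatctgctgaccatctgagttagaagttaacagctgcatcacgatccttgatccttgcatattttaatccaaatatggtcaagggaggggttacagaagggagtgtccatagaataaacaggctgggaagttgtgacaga
Ugt8a: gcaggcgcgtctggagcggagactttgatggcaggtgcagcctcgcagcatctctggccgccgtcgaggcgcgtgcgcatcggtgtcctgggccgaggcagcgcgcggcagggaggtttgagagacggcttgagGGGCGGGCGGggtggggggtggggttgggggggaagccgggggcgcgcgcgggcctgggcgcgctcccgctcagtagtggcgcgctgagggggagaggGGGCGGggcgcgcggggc
Gal3st1: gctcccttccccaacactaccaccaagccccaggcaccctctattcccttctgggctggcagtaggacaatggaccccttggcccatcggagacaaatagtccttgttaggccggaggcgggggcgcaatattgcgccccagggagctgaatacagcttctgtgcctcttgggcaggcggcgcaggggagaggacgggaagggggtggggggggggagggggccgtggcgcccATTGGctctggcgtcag
Elovl5: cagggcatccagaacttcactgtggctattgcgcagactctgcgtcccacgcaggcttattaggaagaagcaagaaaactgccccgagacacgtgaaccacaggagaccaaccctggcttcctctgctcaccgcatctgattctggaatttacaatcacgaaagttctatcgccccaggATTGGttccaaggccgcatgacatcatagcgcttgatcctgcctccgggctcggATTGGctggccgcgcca

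The 4 windows were unlike in composition. That of Aspa was AT-rich, with 38.8% G and C, 2 CpG sites, 3 matches to the TATA box, of which 2 overlap each other on opposite strands, and 1 CCAAT box. That of Ugt8a had 76.8% G and C, 32 CpG sites and 3 GC boxes. Gal3st1 had 65.6% G and C with 1 CCAAT box and Elovl5 55.6% with 2. Over all 32851 RefSeq windows of this length the median was 52.4% G and C, and 12.4% held a TATA box, 32.7% a GC box and 33.8% a CCAAT box. Among the 9 windows of the members, 1, 4 and 5 held these elements, respectively. The Gal3st1 windows chr11:3983386-3983635 and chr11:3983401-3983650 overlap and hold the same CCAAT box, which is counted in both. The matches describe letters in the window only.

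Expression was measured by 60-base probes, of which the first 30 bases are given where they bear on the reading of a value. Scd1 and Scd2 are close paralogs, and their probes shared no run longer than 6 bases. Neither probe was compared with the transcript of the other gene, so this does not show that the signals are separate. The Aspa probe lies at chr11:73119051-73119110 on the minus strand (mm9, the build of the array annotation), the Scd1 probe at chr19:44469387-44469446 on the minus strand and the Scd2 probe at chr19:44381024-44381083 on the plus strand.
Aspa probe: ctggagatcctgtgtttgtgtctcttgatg
Scd1 probe: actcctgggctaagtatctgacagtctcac
Scd2 probe: acatttggggatcctctgcagaggagtatt

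Between 54.1% and 66.4% of the spots of an array were well above background, and all 10 member probes were so on all 48 arrays. Values are log2 intensities after quantile normalization over the 24 arrays of a cell type, and probes differ in efficiency, so levels were compared between groups for a gene and never between genes. A gene was called when limma gave an adjusted p under 0.05 (Benjamini-Hochberg over 55681 probes) and the group medians differed by more than 1.5-fold. A fold compares the medians of both groups and carries a minus sign where the first group was the lower one. Errors of log2 changes are standard errors with 6 arrays against 6.

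The sorted cells carried the markers of their names, and each population also held markers of the other. Structural myelin proteins (11 genes, among them Mog and Mag) averaged a log2 intensity of 12.09 ± 0.22 (SD, n = 6) in P5 O4+ PBS cells and 15.23 ± 0.06 at P10, and progenitor markers (5 genes, such as Pdgfra and Cspg4) 15.76 ± 0.06 and 14.98 ± 0.21. Microglial markers (13 genes, such as Csf1r and Cx3cr1) averaged 16.28 ± 0.04 and 16.66 ± 0.06 in CD11B+ PBS cells at the 2 ages, but all 13 were also well above background in O4+ cells, at 13.59 ± 0.22 and 12.57 ± 0.26. Normalised over all 48 arrays, the median gap of the 13 between O4+ and CD11B+ PBS cells was -3.01 at P5, with 12 called lower and 1 higher in O4+ cells. In the CD11B+ samples 9 of the 11 structural myelin genes were above background at P5, with Mobp and Opalin below it on every array. All 7 measured neutrophil and monocyte markers were called higher under IL1B in both cell types at P5.

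**Figure D1:**
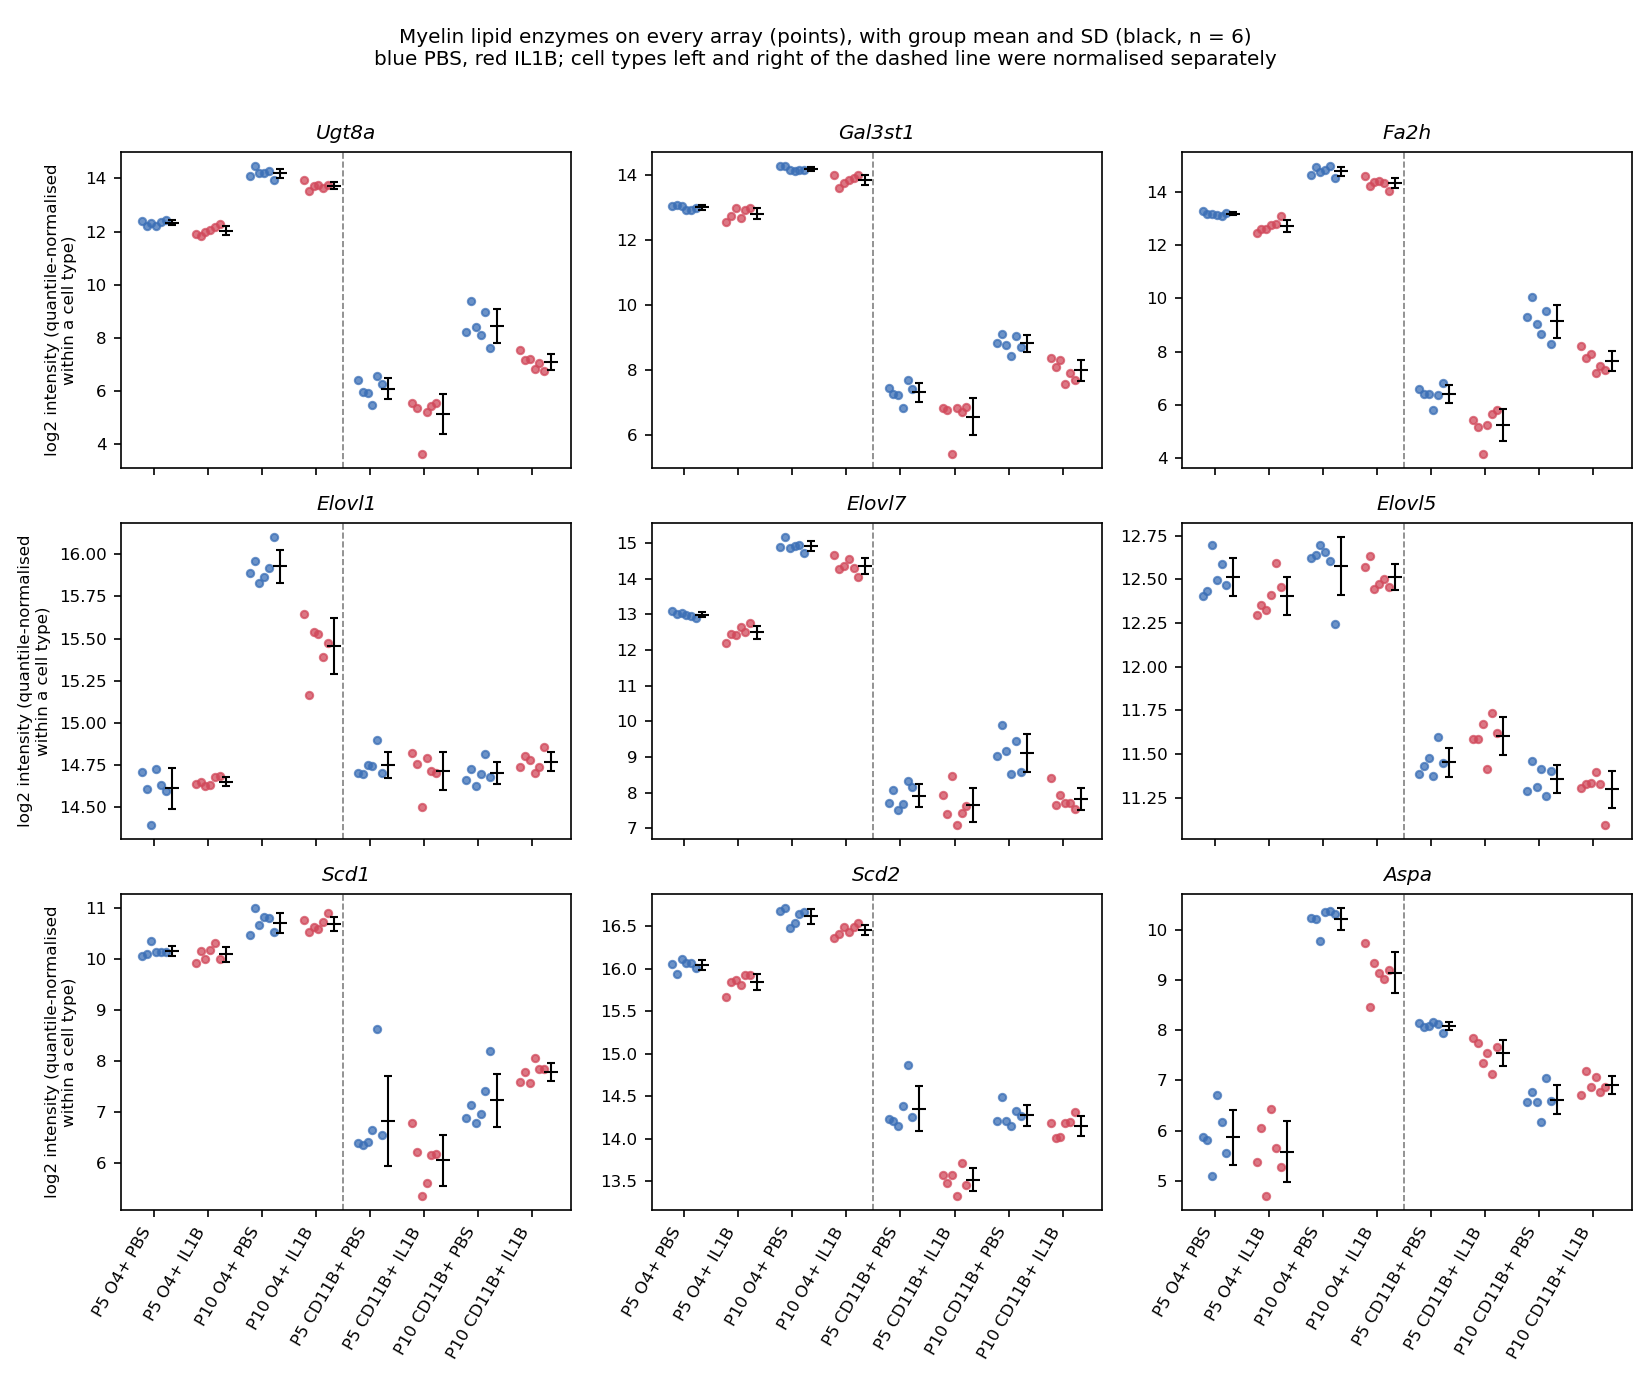
Log2 intensity of the 9 myelin lipid enzymes (one panel each) on every array, by group, with the group mean and SD in black (n = 6). In O4+ cells Aspa went from a median of 5.84 at P5 to 10.27 at P10 in PBS samples while Elovl5 stayed between 12.25 and 12.70; levels left and right of the dashed line were normalised separately.

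In PBS O4+ cells, 8 of the 9 genes rose from P5 to P10, against 7.87% of all probes called higher and 8.97% lower in this comparison. The size of the rise ran from 1.51-fold for Scd2 to 21.6-fold for Aspa. For all 8, the 6 arrays at P10 lay above the 6 at P5, which held for 13% of all probes. Elovl5 was the exception, with a log2 change of 0.06 ± 0.08 (adjusted p = 0.608, 95% interval -0.12 to 0.24).

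Among the genes of galactolipid synthesis, Ugt8a ranged from 12.21 over a median of 12.35 to 12.42 at P5 and from 13.94 over 14.19 to 14.46 at P10. Its log2 change was 1.87 ± 0.08, or 3.58-fold (limma adjusted p = 2.34e-08). Fa2h ranged from 13.11 over 13.17 to 13.29 at P5 and from 14.52 over 14.80 to 14.98 at P10, a change of 1.60 ± 0.08 (adjusted p = 5.51e-08). The sulfotransferase Gal3st1 rose less, by 1.19 ± 0.05 (2.20-fold), and had narrow groups, between 12.92 and 13.07 at P5 and between 14.14 and 14.28 at P10. The 3 enzymes thus rose together, by 2.20- to 3.58-fold.

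Among the chain-building enzymes, Elovl7 ranged from 12.88 over 12.98 to 13.10 at P5 and from 14.72 over 14.89 to 15.16 at P10, a rise of 1.92 ± 0.07 (3.76-fold). Elovl1 rose by 1.32 ± 0.07 (2.44-fold), and its second probe by 1.62 ± 0.11. The desaturases Scd1 (1.51-fold, 0.56 ± 0.09) and Scd2 (1.51-fold, 0.58 ± 0.05) stood just past the fold threshold, and both fell short of it when the ratio was taken from mean log2 values. Aspa ranged from 5.09 over 5.84 to 6.70 at P5 and from 9.78 over 10.27 to 10.38 at P10, a log2 change of 4.34 ± 0.23 (adjusted p = 8.87e-08). Its P5 arrays were the most spread of the 9 genes in this group (SD 0.55).

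**Figure D2:**
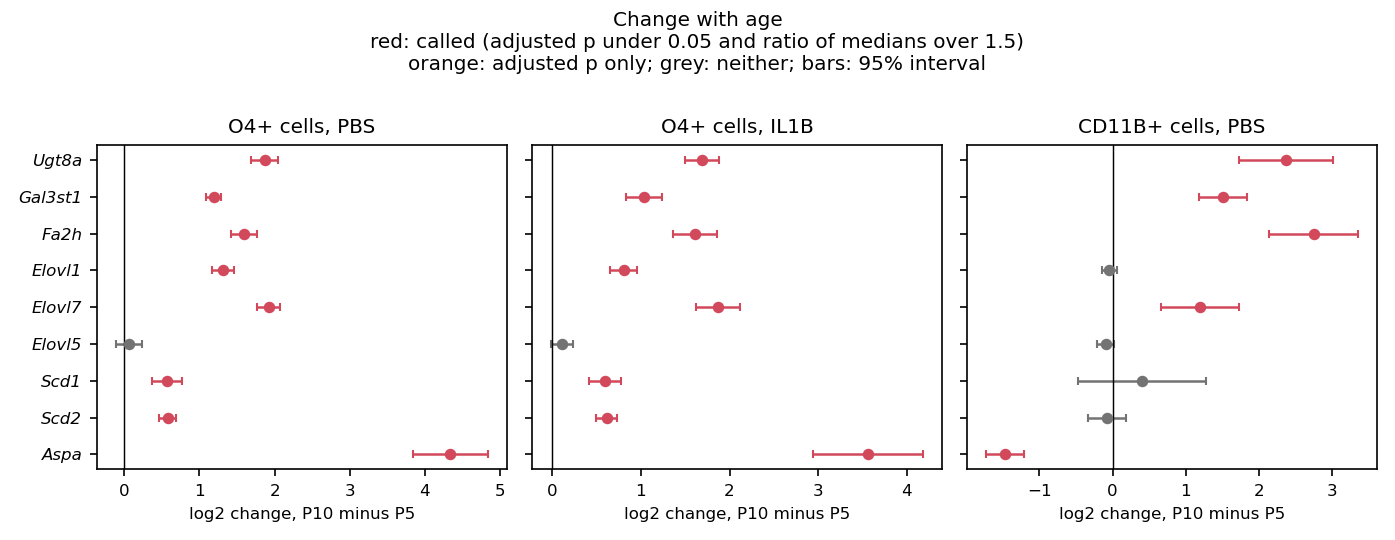
Log2 change from P5 to P10 of each gene with its 95% interval in PBS O4+, IL1B O4+ and PBS CD11B+ cells; red marks called genes. Aspa stands farthest from 0 in every panel but that of CD11B+ cells, where it lies on the other side at -1.47.

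In O4+ cells of IL1B pups the same 8 genes rose from P5 to P10, against 6.07% of all probes called higher and 5.84% lower. Aspa went up 12.5-fold (3.56 ± 0.28), Elovl7 3.57-fold (1.87 ± 0.11), Ugt8a 3.28-fold (1.69 ± 0.09), Fa2h 3.16-fold (1.61 ± 0.11) and Gal3st1 2.06-fold (1.04 ± 0.09). Elovl1 rose by 0.81 ± 0.07 (1.81-fold). Scd1 (1.51-fold) and Scd2 (1.52-fold) again stood just past the threshold, and Elovl5 at 0.11 ± 0.06. When the difference itself was tested, the rise was smaller under IL1B for Elovl1, the one call among the 9 with quantile normalization (-0.51 ± 0.10, adjusted p = 0.0011; 5.32% of all probes were called lower and 7.83% higher in this interaction). With 75th percentile scaling Ugt8a, Gal3st1 and Scd2 were called as well, and with normexp background correction Aspa. For Aspa the same difference with quantile normalization was -0.78 ± 0.37, with an adjusted p of 0.199. P5 and P10 arrays shared neither a slide nor a scan day, so age cannot be told apart from these. With slide as a random block all 8 remained called in both arms. Such a block cannot separate the 2, because every slide held arrays of 1 age only. Microglial markers moved the other way with age in PBS O4+ cells, 11 of 13 being called lower and 1 higher, and their part in the rise of the enzymes was not tested.

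Under IL1B at P5, no member was called in O4+ cells, where 1.49% of all probes were called lower and 3.44% higher. At an adjusted p under 0.05 without the fold threshold, 4 of the 9 were lower and none higher, against 11.5% and 6.75% of all probes. Elovl7 ranged from 12.20 over 12.47 to 12.74 under IL1B and from 12.88 over 12.98 to 13.10 under PBS, a log2 change of -0.50 ± 0.08 (-1.42-fold, adjusted p = 0.00168). Fa2h ranged from 12.44 over 12.70 to 13.10 against 13.11 over 13.17 to 13.29, a change of -0.46 ± 0.09 (-1.39-fold, adjusted p = 0.00547). The groups of Elovl7, Fa2h and Scd2 (-0.20 ± 0.05) did not overlap, by a narrow margin for Fa2h and Scd2, which held downwards for 6.89% of all probes. Ugt8a was lower by less, at -0.29 ± 0.08 (adjusted p = 0.0227), and its groups overlapped. Only 2 of the 6 IL1B arrays shared a slide with PBS arrays. With slide as a fixed block no gene was called either, but the changes were -0.65 for Fa2h, -0.64 for Elovl7, -0.47 for Ugt8a and -0.34 for Gal3st1 (adjusted p = 0.0632). Values that missed the threshold were -0.19 ± 0.08 for Gal3st1, -0.11 ± 0.06 for Elovl5, -0.06 ± 0.07 for Scd1, 0.04 ± 0.05 for Elovl1 and -0.28 ± 0.32 for Aspa.

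At P10, 5 days after the last injection, Aspa was called lower in O4+ cells of IL1B pups, the one call among the 9, with 1.41% of all probes called lower and 2.49% higher. Its arrays ranged from 8.47 over 9.16 to 9.73 under IL1B and from 9.78 over 10.27 to 10.38 under PBS, with no overlap. The log2 change was -1.06 ± 0.18, or -2.15-fold (limma adjusted p = 0.00574). It remained called with slide as a fixed block (-1.10, adjusted p = 0.0306), and leaving out any 1 array gave values from -1.18 to -0.93.

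A further 5 genes were lower at an adjusted p under 0.05 without reaching 1.5-fold, which made 6 of 9 lower and none higher by that rule, against 5.43% and 5.41% of all probes. Elovl7 ranged from 14.04 over 14.31 to 14.66 under IL1B and from 14.72 over 14.89 to 15.16 under PBS, a change of -0.55 ± 0.11 (-1.49-fold, adjusted p = 0.00851), just inside the fold limit. Ugt8a ranged from 13.52 over 13.73 to 13.94 against 13.94 over 14.19 to 14.46, a change of -0.47 ± 0.09 (-1.38-fold, adjusted p = 0.00911). Elovl1 was lower by the same amount, -0.47 ± 0.08 (-1.32-fold, adjusted p = 0.00546), with -0.53 ± 0.13 on its second probe. Fa2h gave -0.45 ± 0.10 (adjusted p = 0.0192) and Gal3st1 -0.34 ± 0.07 (adjusted p = 0.0107). In 5 of the 9 genes, Aspa, Elovl7, Ugt8a, Elovl1 and Gal3st1, the groups did not overlap, by a narrow margin for Ugt8a, against 3.33% of all probes, while those of Fa2h shared a narrow range.

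The other 3 genes were Scd2 (-0.16 ± 0.05, adjusted p = 0.0695), Elovl5 (-0.06 ± 0.08, 95% interval -0.23 to 0.10) and Scd1 (-0.03 ± 0.10, 95% interval -0.24 to 0.19). The log2 change of all 9 had a minus sign, with a median of -0.45 against -0.02 over all probes. The count depends on scaling: with each array set to its 75th percentile, 5 genes were called lower, Aspa, Elovl7, Elovl1, Ugt8a and Fa2h. Over all 55681 probes the lower calls went from 786 to 2059 and the higher ones from 1387 to 1537. The median of all probes then stood at -0.19, and the changes of Elovl1 and Elovl7 at -0.72 and -0.80.

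**Figure D3:**
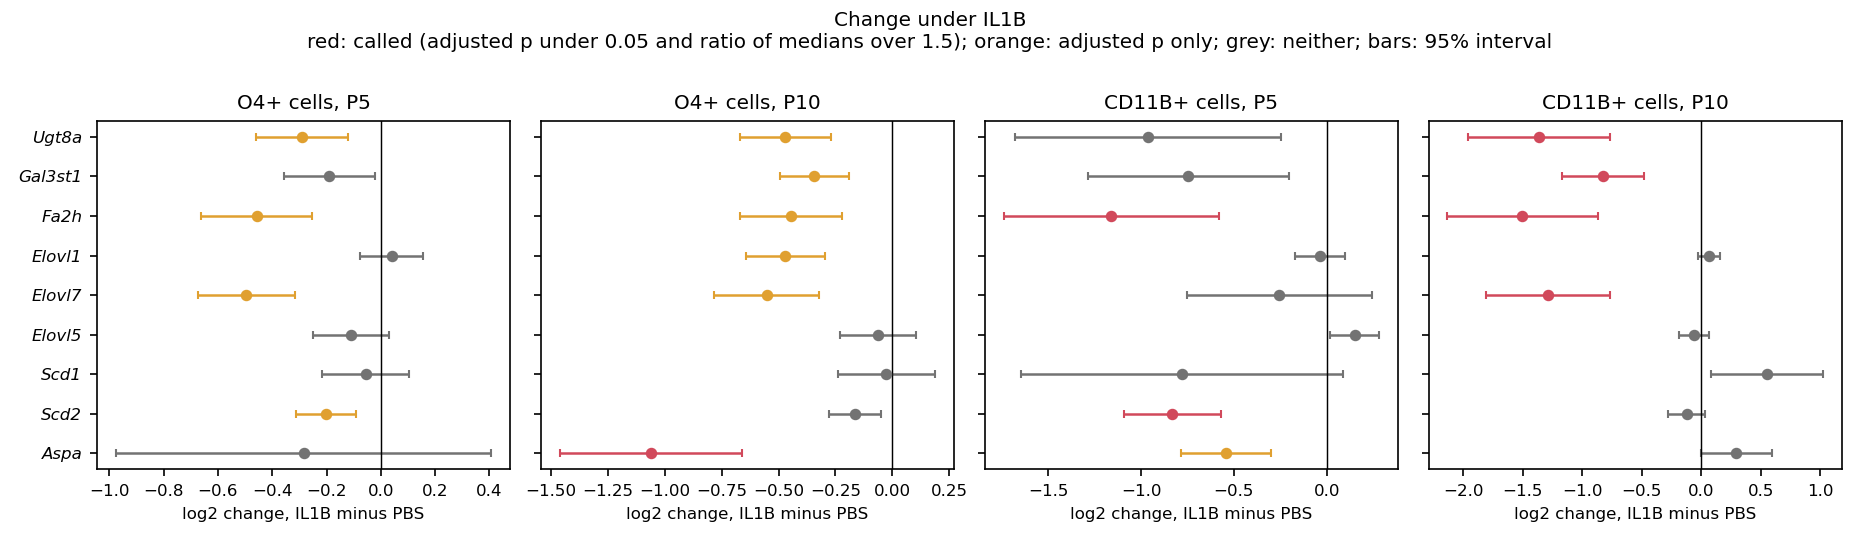
Log2 change under IL1B (IL1B minus PBS) of each gene with its 95% interval, in O4+ and CD11B+ cells at P5 and P10; red marks called genes, orange an adjusted p under 0.05 alone. In O4+ cells only Aspa at P10 is red, and in CD11B+ cells at P10 Ugt8a, Gal3st1, Fa2h and Elovl7 lie between -0.83 and -1.50.

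The response of Elovl1 differed between the ages in O4+ cells, being 0.04 ± 0.05 at P5 and -0.47 ± 0.08 at P10, as the interaction above gives. For the 3 galactolipid enzymes the differences between the responses at P10 and at P5 did not pass the test, at -0.18 ± 0.12 for Ugt8a (95% interval -0.43 to 0.07), -0.15 ± 0.10 for Gal3st1 (-0.37 to 0.06) and 0.01 ± 0.14 for Fa2h (-0.28 to 0.30).

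Markers of several cell types moved beside these values. In O4+ cells microglial markers averaged 13.59 ± 0.22 under PBS and 14.65 ± 0.13 under IL1B at P5 (10 of 13 called higher), and 12.57 ± 0.26 and 13.03 ± 0.25 at P10 (7 of 13 called higher). The 5 general lineage markers, such as Olig2 and Sox10, averaged 12.78 ± 0.07 and 12.49 ± 0.11 at P5, and 13.17 ± 0.10 and 13.16 ± 0.13 at P10. At P5 structural myelin proteins averaged 12.09 ± 0.22 and 11.76 ± 0.28. Of these 11 genes, 7 were lower at an adjusted p under 0.05 and 1 was called lower. Progenitor markers averaged 14.98 ± 0.21 and 15.49 ± 0.19 at P10, with Pdgfra (0.94) and Cspg4 (0.76) called higher, and structural myelin proteins 15.23 ± 0.06 and 14.72 ± 0.14, with 6 of 11 called lower. Opalin (-1.27) and Mog (-0.87), both late myelin genes, led that list, while Mbp stood at -0.07. Endothelial markers averaged 10.98 ± 0.47 under PBS and 10.00 ± 0.22 under IL1B at P5 (5 of 6 called lower). At P10 astrocyte markers averaged 9.35 ± 0.15 and 9.87 ± 0.17 (3 of 6 called higher), neutrophil and monocyte markers 3.74 ± 0.59 and 5.88 ± 0.57 (6 of 7 called higher), and erythroid markers 8.91 ± 0.37 and 9.61 ± 0.51 (2 of 5 called higher). The part of these cell populations in the changes of the enzymes was not tested.

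**Figure D4:**
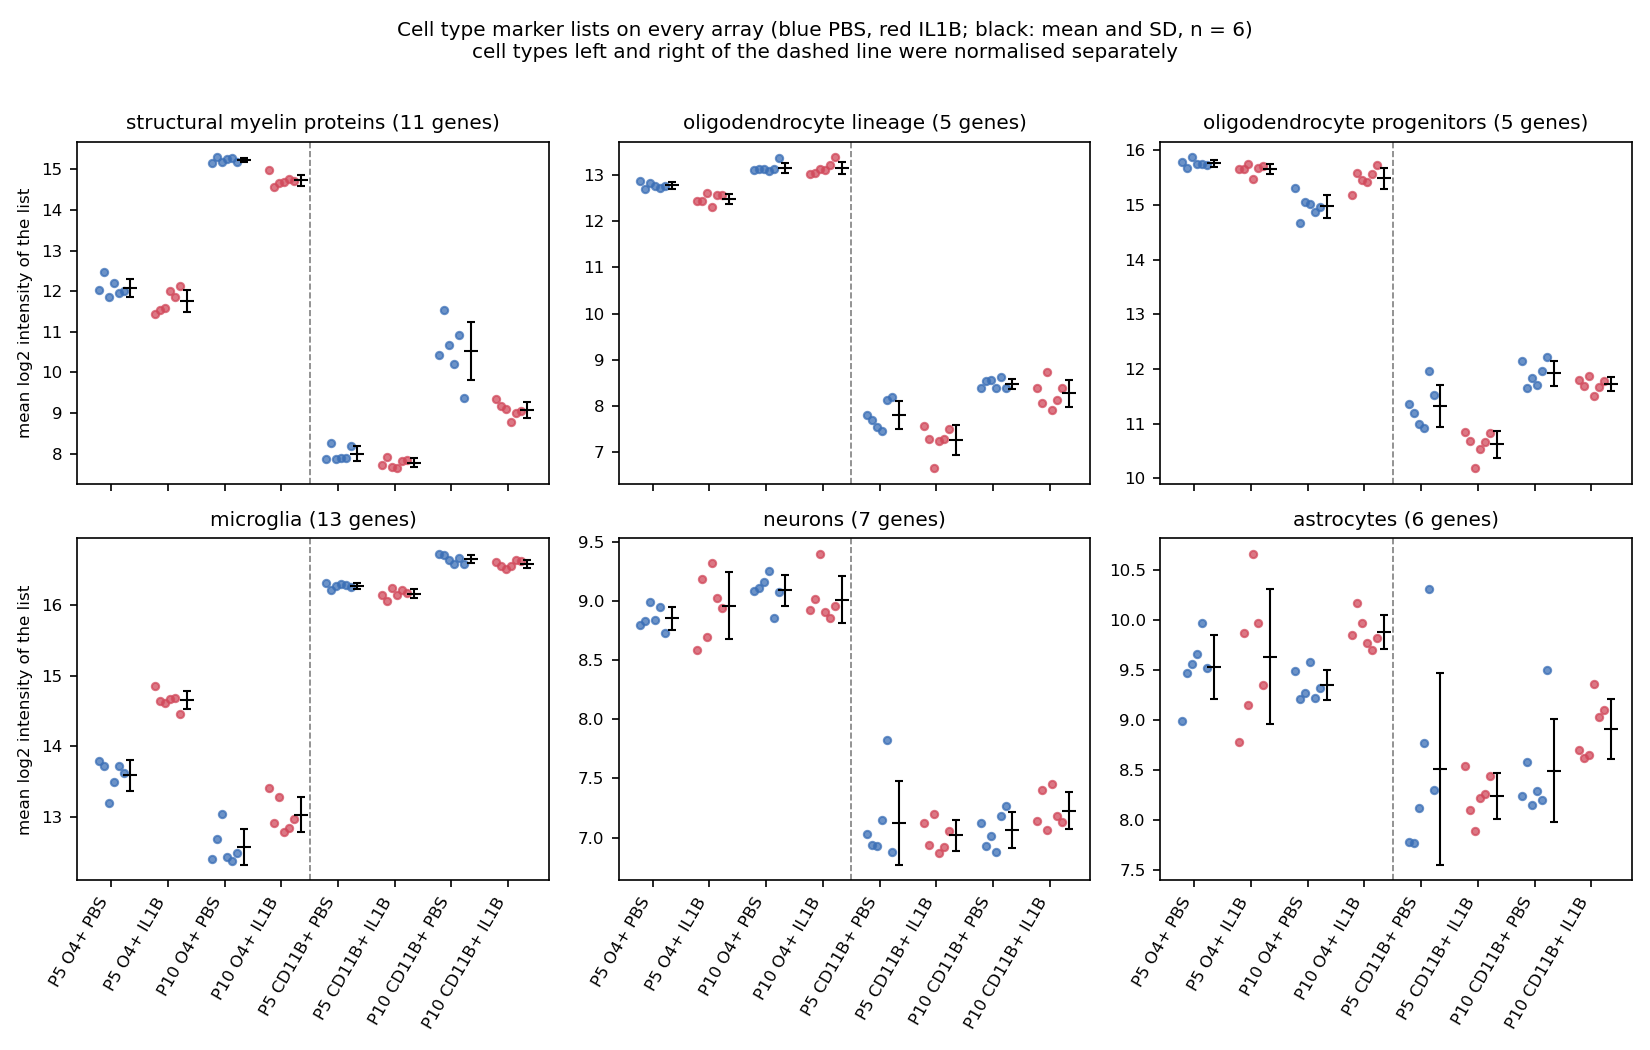
Mean log2 intensity of 6 marker lists on every array, by group, with the group mean and SD in black (n = 6). Microglial markers lie higher under IL1B than under PBS in O4+ cells, at 14.65 against 13.59 at P5, and structural myelin proteins lie lower under IL1B at P10 in both cell types.

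In CD11B+ cells the enzymes of galactolipid synthesis were present at low intensity. On a scale normalised over all 48 arrays, O4+ cells exceeded CD11B+ cells in PBS samples at P5 by 91.8-fold for Fa2h, 62.1-fold for Ugt8a, 43.5-fold for Gal3st1 and 29.0-fold for Elovl7. At P5, 7 of the 9 genes were called higher in O4+ cells against 19.8% of all probes and 1 lower against 21.8%, and at P10 all 9 were higher against 22.2%, with 20.2% lower. Scd1 was 9.47-fold higher at P5 and 10.0-fold at P10, and Scd2 4.08-fold and 6.27-fold. Elovl5 was 1.95-fold higher at P5 and 2.29-fold at P10. The PBS arrays of O4+ and CD11B+ cells shared no slide at P10, so cell type cannot be told apart from slide there. At P5 only CD11B+ PBS replicate 6 shared a slide with O4+ PBS arrays. Both populations came from the same animals, and these fits treat them as unpaired.

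Aspa changed sides between the ages. On the same scale it was lower in O4+ than in CD11B+ cells at P5 (-6.81-fold, -2.72 ± 0.21) and higher at P10 (9.70-fold, 3.18 ± 0.15). Elovl1 did not differ detectably at P5 (-0.03 ± 0.06, 95% interval -0.16 to 0.11) and was 2.70-fold higher in O4+ cells at P10. Its second probe stood at -0.45 ± 0.06 at P5 (-1.36-fold), so the probes differ there. Scaling to the 75th percentile moved the median of all probes in the P5 comparison from -0.05 to -0.34; Elovl1 was then called lower in O4+ cells (-0.74) and Elovl5 was no longer called (0.55).

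With age, 4 genes rose in PBS CD11B+ cells, against 4.65% of all probes, and 1 fell, against 3.62%. Fa2h ranged from 5.80 over 6.41 to 6.82 at P5 and from 8.28 over 9.16 to 10.06 at P10 (6.76-fold, 2.74 ± 0.28). Ugt8a rose 4.62-fold, Gal3st1 2.75-fold and Elovl7 2.32-fold, the same 4 genes in which O4+ cells exceeded CD11B+ cells most at P5. Aspa fell by 1.47 ± 0.12 on the log2 scale, from a range of 7.95 over 8.10 to 8.15 to one of 6.16 over 6.58 to 7.04. Structural myelin proteins in the same CD11B+ samples averaged 8.00 ± 0.18 at P5 and 10.53 ± 0.72 at P10, with 9 of 11 called higher. Their part in these values was not tested. Elovl7 was not called with scan day as a random block (1.13). The other 4 genes passed no test, at 0.40 ± 0.40 for Scd1, -0.08 ± 0.12 for Scd2, -0.05 ± 0.05 for Elovl1 and -0.10 ± 0.05 for Elovl5.

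Under IL1B at P10 the same 4 genes were called lower in CD11B+ cells, against 1.08% of all probes, and no member higher, against 1.09%. Fa2h ranged from 7.20 over 7.61 to 8.20 under IL1B and from 8.28 over 9.16 to 10.06 under PBS (-2.93-fold, -1.50 ± 0.29, adjusted p = 0.0188). Ugt8a gave -1.36 ± 0.27 (-2.30-fold), Elovl7 -1.28 ± 0.24 (-2.63-fold) and Gal3st1 -0.83 ± 0.16 (-1.74-fold), and none of the 4 overlapped between the groups, which held downwards for 1.82% of all probes. Scd1 stood on the other side, at 0.55 ± 0.22 (1.70-fold, adjusted p = 0.148), and at -0.04 with slide as a fixed block. Elovl1 (0.07 ± 0.04), Elovl5 (-0.06 ± 0.06), Aspa (0.30 ± 0.13) and Scd2 (-0.12 ± 0.07) also missed the threshold. Structural myelin proteins in these samples averaged 10.53 ± 0.72 under PBS and 9.07 ± 0.19 under IL1B, with 6 of 11 called lower. Lineage markers averaged 8.48 ± 0.11 and 8.26 ± 0.29 (0 of 5 called), and progenitor markers 11.92 ± 0.23 and 11.72 ± 0.13 (1 of 5 called lower). The part of these markers in the result was not tested. Among the 6 PBS arrays, replicate 2 was highest for structural myelin proteins (11.52), for Fa2h (10.06) and for Ugt8a (9.39), and replicate 6 was lowest (9.37, 8.28 and 7.62). Replicate 6 was also the highest PBS array for neutrophil and monocyte (12.49), erythroid (11.18) and astrocyte markers (9.50). These values lay above the IL1B means of 11.62, 10.63 and 8.91. Only 2 of the 6 PBS arrays shared a slide with IL1B arrays of this comparison. With slide as a fixed block none of the 4 was called (Fa2h -1.19 ± 0.43, adjusted p = 0.444; Gal3st1 -0.83 ± 0.23, adjusted p = 0.345), and with slide as a random block adjusted p lay between 0.0583 and 0.0695. The loss covered the array as a whole, where the 607 higher and 603 lower calls became 0 and 2 with the fixed block and 62 and 58 with the random one.

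Under IL1B at P5, Fa2h and Scd2 were called lower in CD11B+ cells, against 5.25% of all probes, and no member higher, against 4.06%. Scd2, the main desaturase of the brain, ranged from 13.32 over 13.52 to 13.72 under IL1B and from 14.15 over 14.25 to 14.87 under PBS, with no overlap (-1.65-fold, -0.83 ± 0.12, adjusted p = 0.000372). It remained called with slide as a fixed block (-0.77). Only 1 of the 6 PBS arrays shared a slide with IL1B arrays of this comparison, so the fixed-block estimate rests on that array. Among the PBS arrays, replicate 5 was highest for Scd2 (14.87) and Scd1 (8.61) and also for the astrocyte markers (10.31, against 7.77 to 8.77 in the others), and without it the change of Scd2 was -0.73 (adjusted p = 5.26e-05). Fa2h gave -2.09-fold (-1.16 ± 0.26, adjusted p = 0.00793) at a low intensity, with a median of 5.35 under IL1B and 6.41 under PBS, and was not called with slide as a fixed block (-1.36, adjusted p = 0.156) but was with a random one (-1.25, adjusted p = 0.0123). Aspa stood at -0.54 ± 0.11 (-1.41-fold, adjusted p = 0.00412), short of the fold threshold. Its groups, like those of Scd2, did not overlap, which held downwards for 9.98% of all probes. Ugt8a and Gal3st1 stood at -0.96 ± 0.33 (adjusted p = 0.058) and -0.75 ± 0.25 (adjusted p = 0.0521), and Scd1 at -0.78 ± 0.39, which was -0.42 without PBS replicate 5. Elovl1 (-0.04 ± 0.06), Elovl5 (0.15 ± 0.06) and Elovl7 (-0.26 ± 0.23) also missed the threshold. In the same samples endothelial markers averaged 9.65 ± 0.32 under PBS and 8.57 ± 0.26 under IL1B (5 of 6 called lower). Progenitor markers averaged 11.33 ± 0.39 and 10.62 ± 0.25 (2 of 5 called lower) and lineage markers 7.79 ± 0.30 and 7.24 ± 0.33 (1 of 5 called lower). Neutrophil and monocyte markers went the other way, from 10.15 ± 0.51 to 14.23 ± 0.34 (7 of 7 called higher). Structural myelin proteins averaged 8.00 ± 0.18 and 7.77 ± 0.11, with 2 of 11 called lower and 2 higher. The part of these markers in the enzyme values was not tested.

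The responses of CD11B+ cells at the 2 ages differed for 3 members, against 10.5% of all probes called higher and 6.3% lower in that interaction. Scd2 (0.71 ± 0.14, adjusted p = 0.000973) and Aspa (0.84 ± 0.18, adjusted p = 0.00188) had log2 changes under IL1B of -0.83 and -0.54 at P5 and of -0.12 and 0.30 at P10. Elovl7 stood at -0.26 at P5 and -1.28 at P10 (difference -1.03 ± 0.33, adjusted p = 0.0378). With slide as a fixed block none of the 3 differences was called (0.59, 0.53 and -0.35, in the same order), and the call for Elovl7 was also lost when single arrays of any of the 4 groups were left out. At P10 the responses of the 2 cell types differed for Aspa (-1.42 ± 0.24, adjusted p = 0.00108) and Elovl1 (-0.57 ± 0.10, adjusted p = 0.00104), both lower in O4+ relative to CD11B+ cells, against 3.65% of all probes called lower and 3.92% higher. Both populations came from the same animals, and this fit treats them as unpaired.

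The rest of the lipid pathway was followed in 76 genes with a probe, grouped by role into 8 lists. In PBS O4+ cells 14 of them rose from P5 to P10, against 7.87% of all probes, and 7 fell, which is near the 8.97% of all probes, with a median log2 change of 0.11 against 0.02 over all probes, while the 9 enzymes had a median of 1.32. Of 15 genes of ceramide and sphingolipid synthesis 4 rose, led by Sgms2 (3.41-fold), a sphingomyelin synthase, Cers2 (2.74-fold), the ceramide synthase for very long chains, and Degs1 (1.64-fold), the main dihydroceramide desaturase. Cers6 fell (-1.60-fold). Of 12 genes of fatty acid activation and binding, Acsl1 (4.51-fold), Acsl3 (2.39-fold) and Slc27a4 (1.58-fold) rose, and the binding proteins Fabp7 (-3.07-fold), a marker of immature glia, and Fabp3 (-1.83-fold) fell. In fatty acid synthesis Acss2 (2.46-fold), which makes acetyl-CoA from acetate, and Slc25a1 (2.22-fold), the mitochondrial citrate carrier, rose while Acss1 (-1.82-fold) fell. In plasmalogen synthesis 3 of 6 rose (Peds1, 2.31-fold; Far1, 1.64-fold; Agps, 1.55-fold). Of the other elongation genes Elovl6 rose (1.71-fold), and Elovl2 (-1.90-fold) and Hacd4 (-1.56-fold) fell. Fads6 (1.52-fold), a desaturase family member, rose, Rxra (-1.51-fold), a nuclear receptor, fell, and no gene of galactolipid breakdown was called.

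Under IL1B at P10 in O4+ cells, 3 of the 76 were called, Fabp7 (1.79-fold) and Elovl2 (1.70-fold) higher and Sgms2 (-1.74-fold) lower, near the shares of all probes (2.49% higher and 1.41% lower), with a median of -0.04 against -0.02 over all probes. At P5 the calls were Hacd4 (1.52-fold) and Degs2 (-3.80-fold), a dihydroceramide hydroxylase. That is 1 gene up and 1 down among the 76, where 3.44% and 1.49% of all probes were called. In CD11B+ cells at P5, 6 of the 76 fell and 3 rose, against 5.25% and 4.06% of all probes. Degs2 (-4.97-fold), Acacb (-2.53-fold) and Acaca (-1.51-fold), the acetyl-CoA carboxylases, Cers3 (-2.10-fold), Fads2 (-2.04-fold) and Fabp3 (-1.88-fold) fell, and Sgms2 (4.44-fold), Nr1h3 (3.83-fold), a sterol-sensing nuclear receptor, and Ugcg (1.94-fold), which opens the glucosylceramide branch, rose. At P10 Fabp3 (1.59-fold), Fads2 (1.58-fold) and Nr1h3 (1.54-fold) rose and Mlxipl (-1.51-fold) fell in CD11B+ cells. These were 3 and 1 of the 76, against 1.09% and 1.08% of all probes. As given above, nearly all calls of this comparison over the array were lost with slide as a fixed block. These pathway genes were not followed under that block. With age in PBS CD11B+ cells Fabp5 (-3.96-fold), Fabp3 (-3.83-fold) and Acacb (-1.64-fold) fell and Insig1 (1.62-fold) rose. These were 3 and 1 of the 76, against 3.62% of all probes called lower and 4.65% higher.

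**Figure D5:**
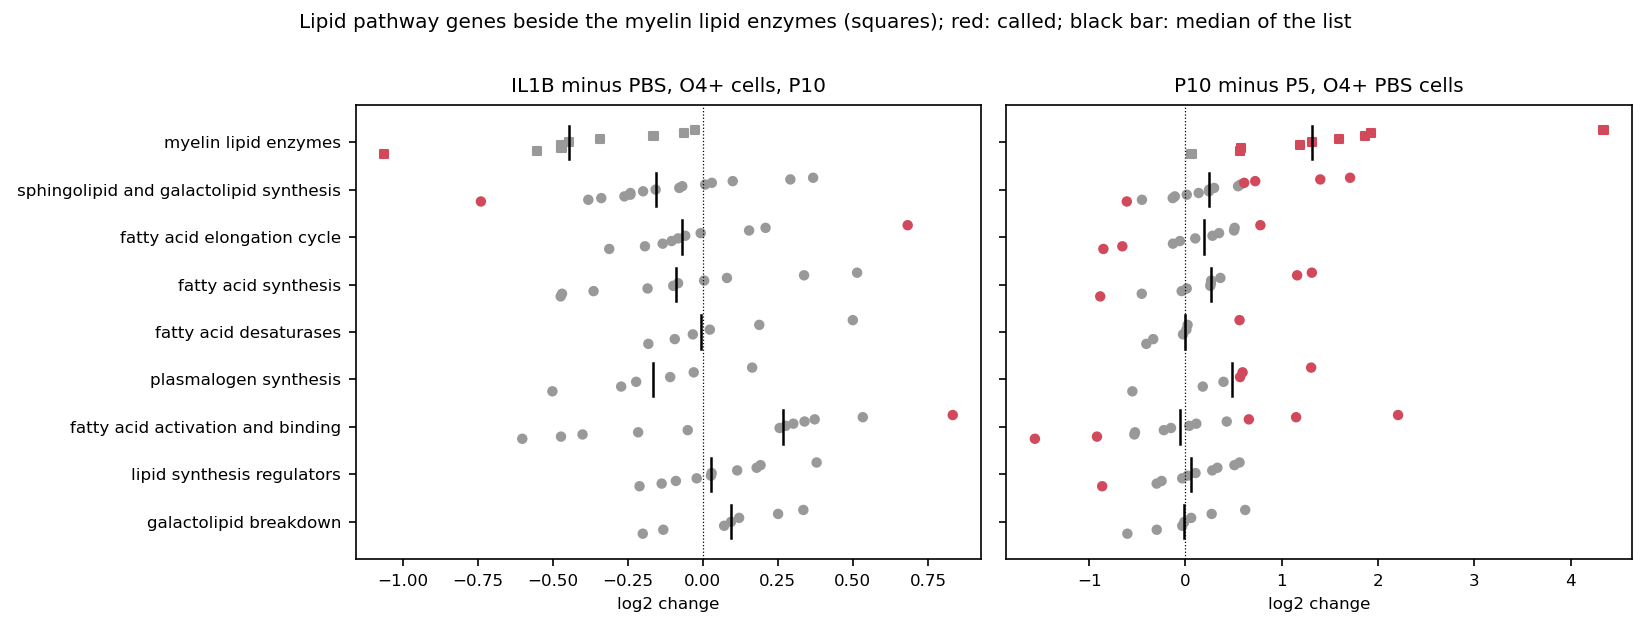
Log2 change of each lipid pathway gene by list, with the median of the list as a black bar, for IL1B minus PBS at P10 and for P10 minus P5 in O4+ cells; the 9 myelin lipid enzymes are squares in the top row. The median of the 9 lies at -0.45 under IL1B and at 1.32 with age.

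Over the 24 O4+ arrays the members moved largely as a set, as a description of samples that share 2 ages and 2 treatments. Pearson's r was 1.00 between Elovl7 and Fa2h, 0.99 between Fa2h and Ugt8a and 0.98 between Gal3st1 and Ugt8a. Elovl5 stood apart, with r from 0.28 with Elovl1 to 0.51 with Scd1. Of all other genes well above background on these arrays, those closest to the mean of the members' standardised levels were Hhip (r = 0.99), Ccnyl1 (0.99), Elmod1 (0.99), Ado (0.99) and Dip2a (0.99).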

How the data were processed

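O4+ and CD11B+ cells were profiled on 48 one-colour Agilent mouse arrays, 1 array per sample and 6 per group. Per the file headers, the authors' scanner software (Feature Extraction 10.7.3.1) gave a background-subtracted spot intensity without scaling between arrays. A deposited value table holds the ratio of each spot to its array's median, and was used only as an alternative. Here log2 intensities, without 278 non-uniform spot values, were quantile normalised within each cell type (24 arrays) and, for O4+ against CD11B+ cells, across all 48, and spots were averaged per probe. Tests were limma fits (version 3.58.1, under R 4.3.3) of the 2 groups concerned, and p-values were adjusted by Benjamini-Hochberg over 55681 probes. The study's methods use a plain two-group test with the same thresholds, which was run as an alternative. Differences between responses were tested as interactions, called at an adjusted p under 0.05 with no fold threshold. The scripts were first tested on simulated data. The number of arrays limits the precision, and p-values measure the spread between samples that the labels number as replicates.

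Any member could be named in any comparison. Of each pathway list, up to 3 genes called in each direction, and of genes outside the lists the 5 closest to the members over the O4+ arrays, were named. Where a gene had several probes, the one with the highest mean was used. The members and lists were chosen with earlier results of these data known. Promoter sequences and their positions are those of RefSeq. The alternatives were other scalings and background corrections, filters, folds, blocks for slide, scan day and replicate number, and leaving out each array.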

Additional observations from a re-analysis of the deposited data

Results flagged for a closer look

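In 10 of 72 sets of 6 arrays, 1 array stood far from the other 5 by Dixon's criterion, which chance gives in about 1 of 20. In CD11B+ cells at P5, PBS replicate 5 was highest for Elovl1 (14.9), Scd1 (8.61) and Scd2 (14.87), and IL1B replicate 3 was lowest for Elovl1 (14.5), Ugt8a (3.63) and Gal3st1 (5.42). In O4+ cells, PBS replicate 3 was highest for Scd1 at P5 (10.34), and at P10 PBS replicate 3 was lowest for Aspa (9.78) and PBS replicate 6 for Elovl5 (12.25). In CD11B+ cells at P10, IL1B replicate 6 was lowest for Elovl5 (11.09). All values are log2 intensities.

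The response to IL1B differed between groups, by a limma interaction, for 4 genes. In O4+ cells the response of Elovl1 was lower at P10 than at P5 by a log2 difference of -0.51. In CD11B+ cells the difference between the ages, P10 minus P5, was 0.84 for Aspa, 0.71 for Scd2 and -1.03 for Elovl7. At P10 the difference between cell types, O4+ minus CD11B+, was -1.42 for Aspa and -0.57 for Elovl1.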

How the results depend on the processing

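Counts are of the 9 members, and the cause of each shift was not tested. In O4+ cells at P5, 4 genes were lower without the fold threshold, against 0 with it. At P10 the 1 lower gene became 5 with 75th percentile scaling or the deposited ratios, 2 with normexp background correction, 6 without the fold threshold, and 1 to 2 with single arrays left out. In CD11B+ cells at P5 the 2 lower genes became 1 with normexp, 5 with the deposited ratios, 1 with slide as a fixed block and 2 to 4 with single arrays left out (4 without PBS replicate 4). At P10 the 4 lower genes became 0 with slide as a fixed block, 0 with slide as a random block, an alternative chosen after seeing the data (over all probes, 607 higher and 603 lower calls became 0 and 2 with the fixed and 62 and 58 with the random block), and 3 to 4 with single arrays left out, and the higher genes ranged from 0 to 1 (1 without PBS replicate 6). With age, leaving out arrays gave 6 to 8 higher genes in O4+ cells of either treatment and 4 to 5 in CD11B+ cells. Between PBS cell types at P5, 2 genes were lower with 75th percentile scaling or the deposited ratios, against 1.

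For the difference of responses between ages in O4+ cells, 4 genes were lower with 75th percentile scaling and 2 with normexp, against 1. In CD11B+ cells the 2 higher genes became 0 with slide as a fixed block and 2 to 3 with arrays left out, and the 1 lower gene became 2 with normexp, 0 with the deposited ratios, 0 with slide as a fixed block and 0 to 2 with arrays left out. Between cell types at P10, 2 genes were higher among probes well above background only, against 0, and arrays left out gave 0 to 2 higher and 2 to 3 lower.

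Changes that were not called turned sign, all small but that of Scd1 in CD11B+ cells at P10 (0.55). In O4+ cells these were Aspa at P5 with scan day as a fixed block (0.0749), Elovl1 at P5 with the deposited ratios (-0.0242), and at P10, with slide as a fixed block, Elovl5 (0.023) and Scd1 (0.024; 0.0010 as a random block). In CD11B+ cells they were Elovl1 at P5 with 75th percentile scaling (0.0934), scan day (0.022) and slide (0.0411) as fixed blocks, and at P10 Elovl5 with the deposited ratios (0.0503) and slide (0.0078), Scd1 with slide (-0.0393) and Scd2 with the deposited ratios (0.0224). With single arrays left out, Elovl1 ranged from -0.0027 to 0.0641 in O4+ and from -0.0565 to 0.0076 in CD11B+ cells at P5 under IL1B, Scd1 from -0.0743 to 0.0311 in O4+ cells at P10, Scd2 with age in CD11B+ cells from -0.1188 to 0.028, and Elovl1 between cell types at P5 from -0.0514 to 0.0199.

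O4+ and CD11B+ cells came from the same animals, but the labels do not say that a number marks them. Between these cell types the correlation of same-numbered PBS samples ran from 0.0414 to 0.3639 at P5, with 5 of 6 best matched by their own number, and from -0.0555 to 0.3524 at P10, with 4 of 6, a hint of pairing from the data only. Between PBS and IL1B it ran from -0.1003 to 0.8219 in O4+ cells at P10. With the replicate block, the difference of responses between cell types at P10 had 2 higher genes against 0 (Fa2h, 0.97, and Ugt8a, 0.84), that between ages in CD11B+ cells had 3 against 2, and no other count changed.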
